A study of Mus musculus with 6 samples.

Results

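Mef2c and Hdac4 encode an opposing pair of regulators of chondrocyte hypertrophy, the step in which growth plate chondrocytes enlarge before cartilage is replaced by bone. The data described here are the Jun peaks at these loci in rib chondrocytes of newborn mice, 39 of the 99162 peaks in the authors' deposited list. Peaks were assigned by the position of their midpoint on the mouse genome build mm9. The Hdac4 window, chr1:93800001-94130000 (330 kb), held 25 peaks, and the Mef2c window, chr13:83600001-83850000 (250 kb), held 14. The windows are given intervals around the genes, chosen with earlier results of these data known. Within them, no peak was chosen by its width, place or spacing.

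The Jun ChIP-seq library came from untreated wild-type ICR mice at postnatal day 1, whose rib cartilage was digested with enzymes to free the chondrocytes. A library of input DNA from the same kind of cells accompanied it. Chromatin was sheared to 100 to 600 bp before the precipitation with a Jun antibody, per the labels' protocols. The series also holds 4 RNA-seq libraries of sorted chondrocytes from Swiss Webster mice with a Col10a1mCherry reporter (1 at stage E18.5, 2 at postnatal day 1 and 1 at postnatal day 3), which were not analysed here. The peaks belong to 1 library without a replicate. Each value below therefore describes that list, and no p-value was computed. Intervals of counts, densities and their ratios cover counting error only, and those of median widths treat peaks as independent. The list gives positions with no height or score, its read depth is unknown, and input values were not used here. The labelled cell type could not be checked against marker genes with peak positions alone.

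MEF2C is a DNA-binding transcription factor of the MADS-box family that drives hypertrophy and activates Col10a1, the collagen gene of hypertrophic chondrocytes. HDAC4 is a class IIa histone deacetylase that binds MEF2 factors in the nucleus and represses their target genes, and it also restrains Runx2. Mice without Hdac4 ossify their cartilage too early, and mice lacking Mef2c in cartilage form hypertrophic cells late. Parathyroid hormone-related protein acts through the nuclear entry of HDAC4 to hold chondrocytes back from hypertrophy. Jun is a subunit of AP-1, a dimer that recognises a short palindromic DNA sequence, and the study asked how AP-1 acts together with Sox9 as chondrocytes become hypertrophic.

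Neither the sequence nor the gene models of mm9 were used here, so no peak is assigned to a promoter, exon or intron, and no peak sequence is shown. RefSeq lists 4 promoters for the pair on the later build GRCm38.p6, 3 for Mef2c and 1 for Hdac4, each running from 250 bases before to 50 bases after a transcription start. They were searched on both strands for TGANTCA, the AP-1 palindrome with any base in its middle. The only match was TGAATCA in the Mef2c promoter that lies farthest along the gene, 137 to 131 bases before its start. Its middle base is neither C nor G, and the classical forms TGACTCA and TGAGTCA, each the reverse complement of the other, were in none of the 4. Of all 32851 RefSeq promoters, 7.81% held TGANTCA and 5.20% the classical form. The single Hdac4 promoter and the Mef2c promoter with the match are shown. That Mef2c promoter was picked for its match, and the other Mef2c promoters, like that of Hdac4, held none. Capitals mark TGAATCA. Their positions belong to GRCm38.p6, so the mm9 peaks described below were not placed on them.

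Hdac4 promoter, GRCm38.p6 chr1:92180292-92180591, minus strand: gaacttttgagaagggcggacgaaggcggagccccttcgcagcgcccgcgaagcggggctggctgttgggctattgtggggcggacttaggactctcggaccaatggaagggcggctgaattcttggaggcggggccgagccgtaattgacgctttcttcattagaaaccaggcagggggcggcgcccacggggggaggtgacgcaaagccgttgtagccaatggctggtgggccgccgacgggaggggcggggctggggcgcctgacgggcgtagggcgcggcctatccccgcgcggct

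Mef2c promoter, GRCm38.p6 chr13:83573357-83573656, plus strand: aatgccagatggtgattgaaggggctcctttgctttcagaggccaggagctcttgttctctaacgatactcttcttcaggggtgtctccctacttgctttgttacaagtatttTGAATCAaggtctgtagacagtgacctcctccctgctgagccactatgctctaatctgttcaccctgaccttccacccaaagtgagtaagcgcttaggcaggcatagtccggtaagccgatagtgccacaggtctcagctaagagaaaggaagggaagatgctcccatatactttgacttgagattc

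The bases G and C made up 68.0% of the Hdac4 promoter, against 48.3% of this Mef2c promoter and 35.7% and 47.0% of the other Mef2c promoters. A match is a description of the letters in these windows and shows no bound site.

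Jun peaks were present at both genes, at densities that did not differ beyond counting error. The 25 peaks of Hdac4 gave 75.8 peaks per Mb (95% Poisson interval 49.0 to 111.8), and the 14 peaks of Mef2c gave 56.0 per Mb (30.6 to 94.0). The ratio of Hdac4 to Mef2c was 1.35, with an exact 95% interval of 0.677 to 2.82 that includes equal densities. Peaks lie in groups, so these intervals are too narrow. The density at Hdac4 was 2.10 times that of chromosome 1 between its first and last peaks (36.1 per Mb), and that at Mef2c was 1.39 times that of chromosome 13 (40.2 per Mb).

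Neither locus was among the fullest of the genome. When the autosomes were cut into tiles of the length of the Hdac4 window, 1467 of 7258 tiles (20.2%) held at least its 25 peaks, with a median of 8 peaks and a maximum of 179. For the length of the Mef2c window, 2813 of 9581 tiles (29.4%) held at least its 14 peaks, with a median of 6 and a maximum of 157. The loci thus lay in the upper part of the distribution, but counts as high as theirs were common. On their own chromosomes, 102 of 585 tiles were as full as Hdac4 on chromosome 1, and 135 of 468 as full as Mef2c on chromosome 13.

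**Figure D1:**
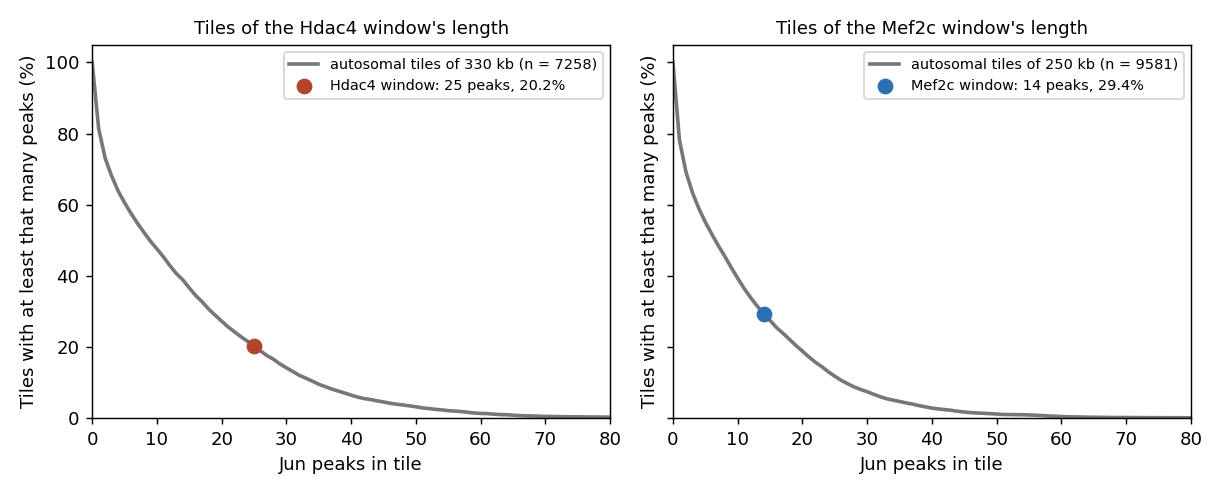
The percentage of autosomal tiles (y axis) that held at least a given number of Jun peaks (x axis), for tiles as long as the Hdac4 window (left) and the Mef2c window (right), with the dot at the window's own count. The dots sit at 25 peaks and 20.2% for Hdac4 and at 14 peaks and 29.4% for Mef2c.

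The loci differed in what surrounded them. The Hdac4 window had many peaks around it on chromosome 1, with 97 in the 1 Mb before it and 72 in the 1 Mb after it. These were uneven. The stretch from 400 to 100 kb before the window held 9 peaks, or 30.0 per Mb, against 36.1 per Mb for the chromosome. Its edges follow the bin counts and no interval was computed for it, so it is a description only. The Mef2c window was an island of peaks on chromosome 13, with 3 peaks in the 1 Mb before it and 8 in the 1 Mb after it. At Hdac4 the window had 0.897 times the density of its flanks (exact 95% interval 0.564 to 1.37), which includes 1. At Mef2c the window was 10.2 times as dense as its flanks (4.29 to 24.8). Peaks lie in groups, so the intervals of both ratios are too narrow. With flanks of 500 kb the ratio at Mef2c was 18.7, and with flanks of 5 Mb it was 6.09. The flanks themselves had 84.5 peaks per Mb at Hdac4 and 5.5 per Mb at Mef2c. Cut into bins of 50 kb, 37 of 40 flanking bins held a peak at Hdac4, and 8 of 40 at Mef2c. No flanking bin at Mef2c held more than 3 peaks, while the fullest at Hdac4 held 14.

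Such isolation was rare among tiles of this grid with as many peaks. The grid was aligned to the window, so the Mef2c peaks fell within 1 tile, while tiles elsewhere could cut a group of peaks. The shares below are therefore not a like-for-like comparison. Of the 2770 autosomal tiles of 250 kb that held at least 14 peaks and lay at least 1 Mb from the first and last peaks of their chromosome, 18 (0.65%) exceeded their flanks at least as much as Mef2c did, Mef2c included. The median of these tiles was 1.53 times the density of the flanks, with 127 peaks in the flanks against 11 at Mef2c. Among the 1440 tiles of 330 kb with at least 25 peaks, 100 (6.94%) stood out as little from their flanks as Hdac4 or less, and the median was 1.70 times. These backgrounds were added after the surroundings had been seen, and they describe the list without testing the loci.

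**Figure D2:**
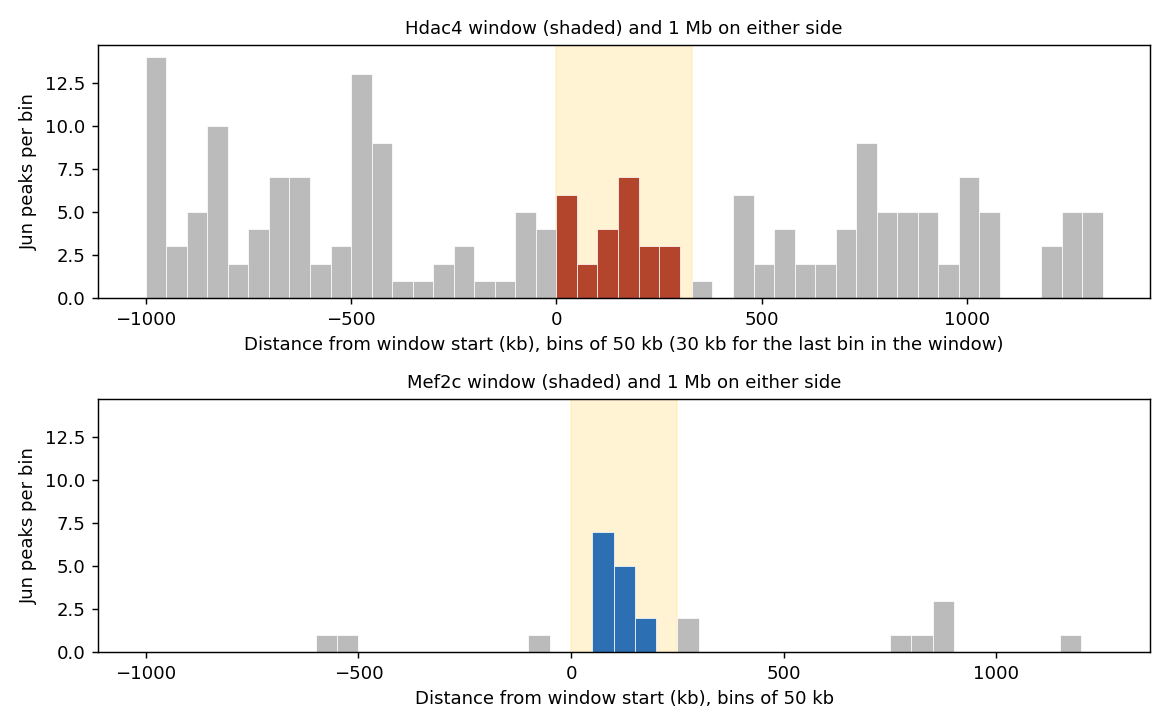
Jun peaks per bin (y axis) against distance from the window start in kb (x axis) for Hdac4 (top) and Mef2c (bottom), with the window shaded and its bins coloured. At Hdac4 the flanks hold 97 and 72 peaks and the window 25, while at Mef2c the flanks hold 3 and 8 peaks and the window 14.

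The 25 Hdac4 peaks were spread over most of their window. From the first to the last they spanned 282 kb, starting 10.5 kb inside the window and ending 37.4 kb before its end. In successive bins of 50 kb the window held 6, 2, 4, 7, 3 and 3 peaks, and the last 30 kb held none. The 14 Mef2c peaks were confined to the middle of theirs. They spanned 135 kb, and the bins of 50 kb held 0, 7, 5, 2 and 0 peaks. The nearest peak outside the Hdac4 window was centred 18.7 kb after its end (94148699 to 94148755), and the next nearest 28.6 kb before its start (93771390 to 93771485). Outside the Mef2c window the nearest lay 10.8 kb after its end (83860768 to 83860893), and on the other side the nearest was 82.2 kb before its start (83517711 to 83517820). No interval crossed a window border, and assigning peaks by any overlap left both counts as they were.

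**Figure D3:**
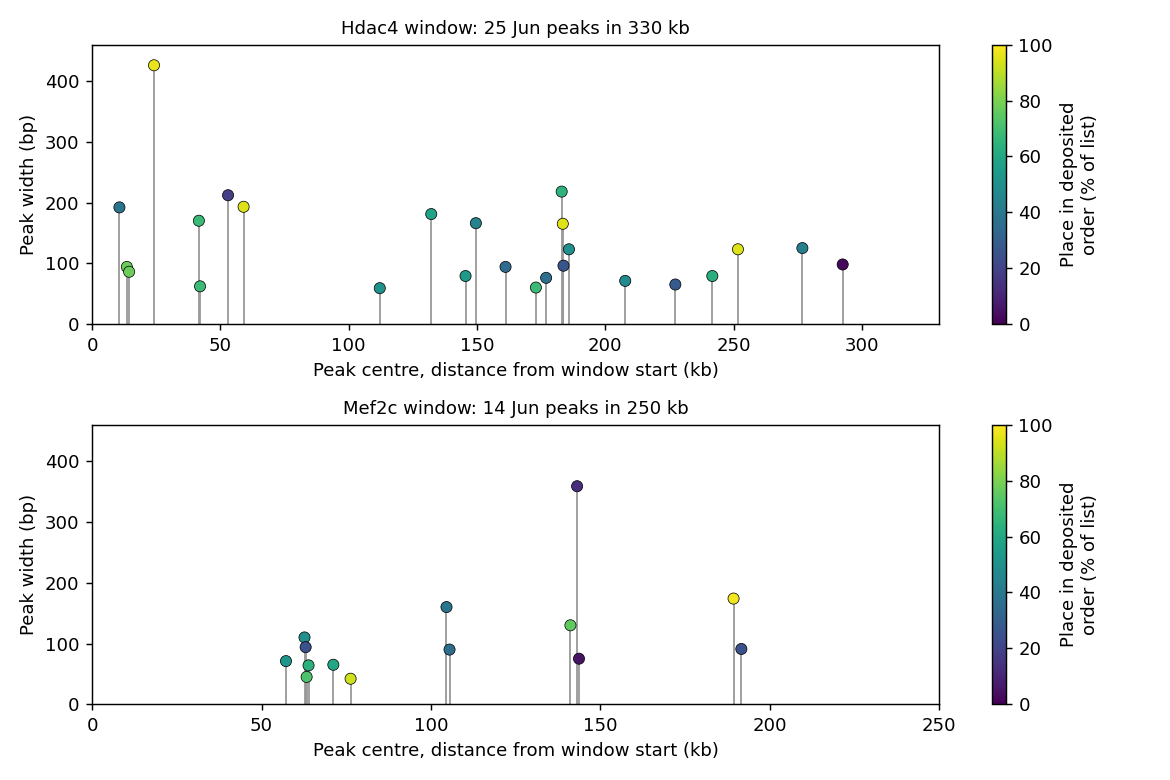
Each Jun peak as a stem at the distance of its centre from the window start in kb (x axis), with its width in bp (y axis) and, in colour, its place in the deposited order as a percentage of the list, for Hdac4 (top) and Mef2c (bottom). The 14 Mef2c peaks stand in 4 separate places, while the 25 Hdac4 peaks run from 10.6 to 293 kb along their window.

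Peaks whose centres lay within 10 kb of the next were joined into groups. At Hdac4 this gave 13 groups, of which 7 were single peaks. At Mef2c it gave 4 groups and no single peak. All 14 Mef2c peaks had another Jun peak within 10 kb, against 18 of 25 at Hdac4 (72.0%) and 80.9% of all autosomal peaks. Within 1 kb the shares were 7 of 25 at Hdac4 (28.0%), 8 of 14 at Mef2c (57.1%) and 39.1% of autosomal peaks. The median distance to the nearest other peak was 4034 bp at Hdac4 and 896 bp at Mef2c, on either side of the autosomal median of 1741 bp. Peaks of 1 locus share their surroundings and are not replicates, so these shares are given without a test.

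**Figure D4:**
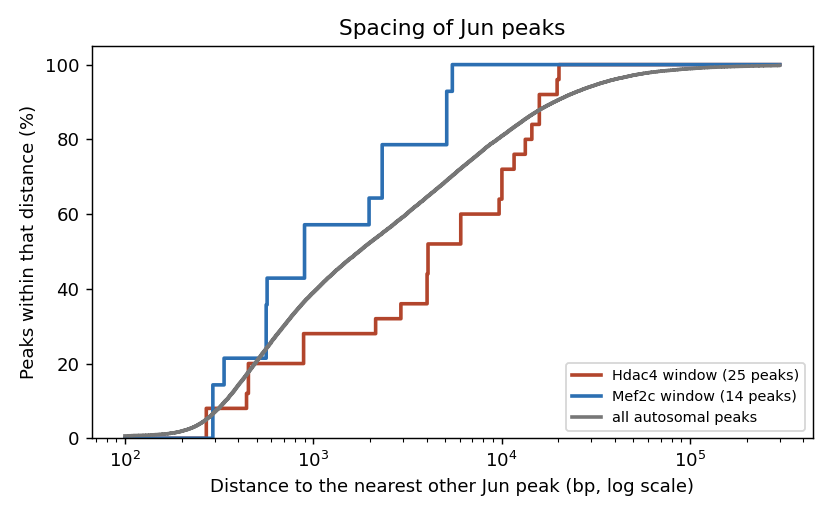
The percentage of Jun peaks (y axis) with another Jun peak within a given distance in bp (x axis, log scale) at Hdac4, at Mef2c and over all autosomes. From about 1 kb to 10 kb the Hdac4 curve runs below and the Mef2c curve above that of the autosomes, with 28.0% of peaks within 1 kb at Hdac4, 57.1% at Mef2c and 39.1% over the autosomes.

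The fullest Hdac4 group had 6 peaks within 12976 bp (93972923 to 93985898). It began with narrow peaks of 60 bp (93972923 to 93972982) and 76 bp (93976897 to 93976972). Then came the tightest stretch of the locus, with peaks of 218 bp (93982885 to 93983102), 165 bp (93983351 to 93983515) and 96 bp (93983653 to 93983748). The peaks of 165 and 96 bp had centres 267.5 bp apart, the shortest distance at Hdac4. A peak of 123 bp (93985776 to 93985898) closed the group. The only other group of 3 or more peaks lay near the start of the window, with 4 peaks over 13.8 kb (93810525 to 93824315). Its peaks measured 192, 94, 86 and 426 bp in the order of position, and the last of them (93823890 to 93824315) was the widest of both loci.

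Between these groups Hdac4 held pairs and single peaks. Peaks of 170 bp and 62 bp formed a pair with centres 448 bp apart (93841506 to 93842069). Peaks of 212 bp and 193 bp followed (93852857 to 93859116), and after them came the longest gap of the locus, 53.1 kb. It ended at the narrowest Hdac4 peak, 59 bp wide (93912071 to 93912129). A single peak of 181 bp (93932068 to 93932248), a pair of 79 and 166 bp (93945485 to 93949640) and a single peak of 94 bp (93961068 to 93961161) led up to the fullest group. Beyond that group the peaks thinned out. There were single peaks of 71 bp (94007731 to 94007801) and 65 bp (94027262 to 94027326) and a pair of 79 and 123 bp (94041679 to 94051761). The last 2 peaks stood alone, 125 bp wide (94076756 to 94076880) and 98 bp wide (94092479 to 94092576). Among the 24 distances between neighbours, 4 exceeded 20 kb, and the median was 10453 bp.

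At Mef2c the fullest group, 7 peaks over 19.1 kb (83657194 to 83676327), held 50.0% of the peaks of the locus. Its core was a run of 4 peaks of 110 bp (83662645 to 83662754), 94 bp (83662988 to 83663081), 45 bp (83663303 to 83663347) and 64 bp (83663859 to 83663922). Neighbouring centres in this run were 335, 290.5 and 565.5 bp apart, and 290.5 bp was the shortest distance at Mef2c. These distances lie within the range of fragment lengths, so the 4 peaks may not be separate sites. A peak of 71 bp (83657194 to 83657264) preceded the run by 5471 bp. Peaks of 65 bp (83671181 to 83671245) and 42 bp (83676286 to 83676327) followed it, and that of 42 bp was the narrowest of both loci. The median width in this group was 65 bp, against 114 bp for all autosomal peaks.

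The other 3 Mef2c groups were smaller and had higher median widths, 125, 130 and 132.5 bp against 65 bp, though single peaks overlapped in width. A pair of 160 and 90 bp (83704543 to 83705563) lay 28.3 kb after the fullest group, measured between centres. A triplet followed 35.7 kb later (83741153 to 83743784), with peaks of 130 bp, 359 bp and 75 bp. The peak of 359 bp (83743009 to 83743367) was the widest at Mef2c, wider than 95.4% of autosomal peaks or equal to them. After the longest gap of the locus, 45.6 kb, the window ended with a pair of 174 and 91 bp (83789302 to 83791733). The median distance between neighbours over the locus was 2300 bp, and 3 of the 13 distances exceeded 20 kb. These 3 are the gaps between the 4 groups.

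Peak widths at both loci overlapped those of all autosomal peaks, with lower medians. At Hdac4 the median width was 98 bp (95% interval 79 to 166 bp), with the central 50% between 79 and 170 bp and a range of 59 to 426 bp. At Mef2c the median was 90.5 bp (64 to 160 bp), with the central 50% between 66.5 and 125 bp and a range of 42 to 359 bp. All autosomal peaks had a median of 114 bp and a central 50% between 88 and 151 bp. The intervals of these medians come from ranked widths and treat the peaks of a locus as independent, which they are not. They are no test against the autosomal median. Peaks of at least 200 bp numbered 3 of 25 at Hdac4 (12.0%) and 1 of 14 at Mef2c (7.14%), against 14.0% of autosomal peaks. Peaks under 50 bp numbered 0 of 25 at Hdac4 and 2 of 14 at Mef2c (14.3%), against 6.30% of autosomal peaks. No peaks overlapped at either locus, and together they covered 3313 bp (1.00%) of the Hdac4 window and 1570 bp (0.628%) of the Mef2c window. Merging peaks separated by at most 1000 bp left 21 regions at Hdac4 and 9 at Mef2c, with median widths of 123 bp at Hdac4 and 130 bp at Mef2c and 3 regions of more than 1 peak at each locus.

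The deposited order of the peaks does not follow the genome and no source explains it, so a place in it is given as a description and not as a strength. At Hdac4 the median place was 53195 of 99162, or 53.6% of the list, and at Mef2c it was 50882, or 51.3%. The first 50% of the list held 11 of the 25 Hdac4 peaks and 7 of the 14 Mef2c peaks. The last 10% held 4 of the 25 Hdac4 peaks and 2 of the 14 Mef2c peaks. Each locus had 1 peak in the first 10%. At Hdac4 this was the last peak by position, 98 bp wide (94092479 to 94092576), at place 2037. At Mef2c it was the 75 bp peak that closes the triplet (83743710 to 83743784), at place 4998. The 359 bp peak beside it had the second earliest place of the locus, 12892, so that the earliest pair at Mef2c had centres 559 bp apart. At Hdac4 the second earliest was the 212 bp peak (93852857 to 93853068), at place 17834, 240 kb from the earliest. The widest Hdac4 peak was the latest of its locus, at place 95839, while at Mef2c the latest was the 174 bp peak of the final pair, at place 97255.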

How the data were processed

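The authors deposited 1 list of Jun peaks, with the chromosome, start and end of each as coordinates and no other value. The genome build mm9 is given per the submitters' processing notes. The sources used here name no aligner or peak caller and do not say how the input library was used. The list was taken to belong to the 1 Jun library of the series. Positions were handled in Python 3.11.15 (numpy 2.4.6, pandas 2.3.3), and positions are counted from 1. Intervals (95%) came from scipy 1.17.1: exact Poisson intervals for densities and exact conditional binomial intervals for ratios of densities. Intervals of median widths were read from the ranked widths at binomial ranks. Tiles had the length of a window, in a grid aligned to it, and only whole tiles between the first and last peak of each of 19 autosomes were counted. Counting, merging and grouping were tested on simulated data. The windows, the members and the rule for named peaks (the first, last, widest, narrowest, earliest listed and closest peaks, the longest gap and each group of 3 or more) were chosen with earlier results of these data known. RefSeq promoters of GRCm38.p6 were used for motifs only. Overlap with Sox9 peaks was not analysed here.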

Additional observations from a re-analysis of the deposited data

How the results depend on the processing

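Of 43 alternatives, 28 left a value within its interval (for counts, within 1.5 times), 15 moved it and 0 reversed it. A ratio that crossed 1 but stayed within its interval, as at Hdac4 against its flanks, was not counted as reversed. With peaks at most 1000 bp apart merged, Mef2c had 9 regions and a fullest group of 4, and tiles as full were 16.4% for Hdac4 and 36.7% for Mef2c. With peaks of at least 50 bp, tiles as full were 18.0% for Hdac4 and 32.2% for Mef2c. They were 24.8% for Hdac4 and 37.5% for Mef2c over tiles with at least 1 peak, and for Hdac4 17.4% on chromosome 1 alone. The first 50% of the list held 11 Hdac4 and 7 Mef2c peaks and the last 50% held 14 Hdac4 and 7 Mef2c peaks, fewer by construction. With 20 kb between centres the fullest Hdac4 group had 10 peaks, and with 5 kb the fullest Mef2c group had 4. The cause of the other shifts was not tested. The excess of Mef2c over its flanks was 18.7-fold with flanks of 500 kb, 6.09-fold with 5 Mb and 8.0-fold with merged peaks. At Hdac4 the ratio was 0.896 with merged peaks, 1.01 with flanks of 500 kb and 1.18 with 5 Mb, on both sides of 1 and with intervals that include it. The ratio of Hdac4 to Mef2c ran from 1.19 to 1.77 over 5 alternatives, with 1 inside each interval. Without read depth, a place without a peak cannot be taken as unbound. No paired analysis was possible because the list comes from 1 library.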

Other observations

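Some peaks of a locus had nearly the same place in the deposited order, whether or not they were neighbours. At Hdac4, 5 of 300 pairs of peaks lay within 10 places of each other. Among neighbouring pairs alone, the share was 2 of 24 at Hdac4 (8.33%) and 0 of 13 at Mef2c. Over the autosomes it was 615 of 97781 neighbouring pairs (0.629%). A share over all autosomal pairs, neighbours or not, is not given here. The neighbouring peaks of 170 and 62 bp (93841506 to 93842069) had places 67123 and 67124, and a peak 131 kb away (from 93972923) had place 67130. The neighbours of 94 and 86 bp (93813471 to 93814446) had places 76999 and 76995. Peaks 68.3 kb apart (from 93983351 and 94051639) had places 94045 and 94042. At Mef2c 0 of 91 pairs lay so close, but a peak there (from 83663303, place 71054) directly followed in the list the last peak before the window (place 71053), 146 kb away. These places were looked at after seeing the data, and the order of the list is not explained.

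In the RefSeq gene order of GRCm38.p6, the protein-coding neighbours of Hdac4 are Twist2 and Ndufa10, and those of Mef2c are Cetn3 and Tmem161b. Which Jun peaks lie near these neighbours was not determined, because no mm9 gene models were used here.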
